A study of Mus musculus with 6 samples.

Results

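Chemokines and their receptors were examined in RNA-seq data from primary mouse embryonic fibroblasts (pMEFs) labelled as wild type or knockout for the Hat1 gene. A gene was a member if its symbol in the deposited table was that of a chemokine (Ccl, Cxcl, Cx3cl1, Xcl1, Pf4 or Ppbp) or of a chemokine receptor (Ccr, Ccrl2, Cxcr, Cx3cr1, Xcr1 or Ackr). This rule took 49 of the 17512 genes in the table, 32 ligands and 17 receptors. Another 14 genes whose symbols fit the rule in the mouse annotation were not analysed here, among them Ccl1, Ccl19, Ccl21a, Ccl26, Cxcl13, Xcl1, Ccr4, Ccr6, Ccr7, Ccr8, Cxcr2 and Ackr2.

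HAT1 is the histone acetyltransferase that modifies newly made histone H4 before its assembly into chromatin. The 6 libraries were 3 lines labelled HAT1 WT (36, 47 and 78) and 3 labelled HAT1 KO (33, 41 and 72), all pMEFs on the C57bl6 strain background, grown in DMEM with serum and antibiotics, with no treatment named in the labels. Per the study's methods, such cells were cultured from embryos at mid-gestation after the internal organs had been removed, so a culture could carry any other cell of the remaining tissue. The study used the RNA-seq to ask whether chromatin that closes without HAT1 also loses transcription, and each line was counted as 1 replicate. Nothing in the labels says that each line came from its own embryo, and p-values measure the spread between these lines.

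Chemokines are small secreted proteins that guide cell migration, and they act on G protein-coupled receptors that signal through inhibitory G proteins to Rac, phosphoinositide 3-kinase and the actin skeleton. Inflammatory chemokines are switched on by NF-kB and interferon and recruit neutrophils and monocytes, while homeostatic ones such as CXCL12 hold and guide cells in resting tissue. Fibroblasts are a main source of CXCL12 and of inducible neutrophil and monocyte attractants, whereas most of the receptors are known from blood cells, including macrophages.

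The libraries held between 67720628 and 98786746 counts, and the members took 0.078%, 0.081% and 0.085% of them in WT lines 36, 47 and 78 and 0.068%, 0.066% and 0.076% in KO lines 33, 41 and 72. Hat1 itself stood at 17.4, 23.0 and 20.1 CPM (counts relative to the scaled library size) in the WT lines and at 10.2, 10.0 and 10.3 CPM in the KO lines, and the log2 fold change was -0.99 (SE 0.12, adjusted p = 0.0376 in the edgeR test). The lines labelled HAT1 KO thus kept 50.4% of the WT level, with 678 to 910 counts of Hat1 each, and which part of the gene was removed is not given in the sources used here, so HAT1 KO below is the label's name for these lines. KO line 72 stood apart from the other lines, with a mean correlation of 0.958 with them over all tested genes against 0.974 to 0.979 for the others. Y-linked genes had 13788 and 12841 counts in WT lines 36 and 47, 231 in WT line 78 and 4 to 8 in the KO lines, so sex and genotype cannot be told apart in WT lines 36 and 47. Values are given throughout in the order WT lines 36, 47 and 78, then KO lines 33, 41 and 72, and every fold change is that of HAT1 KO over HAT1 WT.

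Of the 49 members, 44 passed the filter on low counts and were tested, 28 ligands and 16 receptors. At an adjusted p under 0.05, 2 members were lower in HAT1 KO, the ligands Cxcl16 and Pf4, and 0 were higher. That is 4.55% of the tested members, against 0.528% of all 14773 genes tested (78 genes) for lower and 0.0% for higher. At an unadjusted p under 0.05 in the edgeR test, 11 members (25.0%) were lower, against a background of 8.77%, and 1 member (2.27%), Ppbp, was higher, against 5.88%. In 12 members (27.3%) every KO line lay below every WT line, against 12.4% of all genes, and in 0 members did every KO line lie above, against 9.59%. The members nevertheless split evenly by sign, with 22 below 0 and 22 above, and the median log2 fold change was -0.025 for the ligands and -0.014 for the receptors, beside 0.008 over all genes. The calls thus lay on the lower side while both medians were near 0, and the medians depended on the processing, from -0.44 to 0.062 for the ligands and from -0.455 to 0.041 for the receptors.

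**Figure D1:**
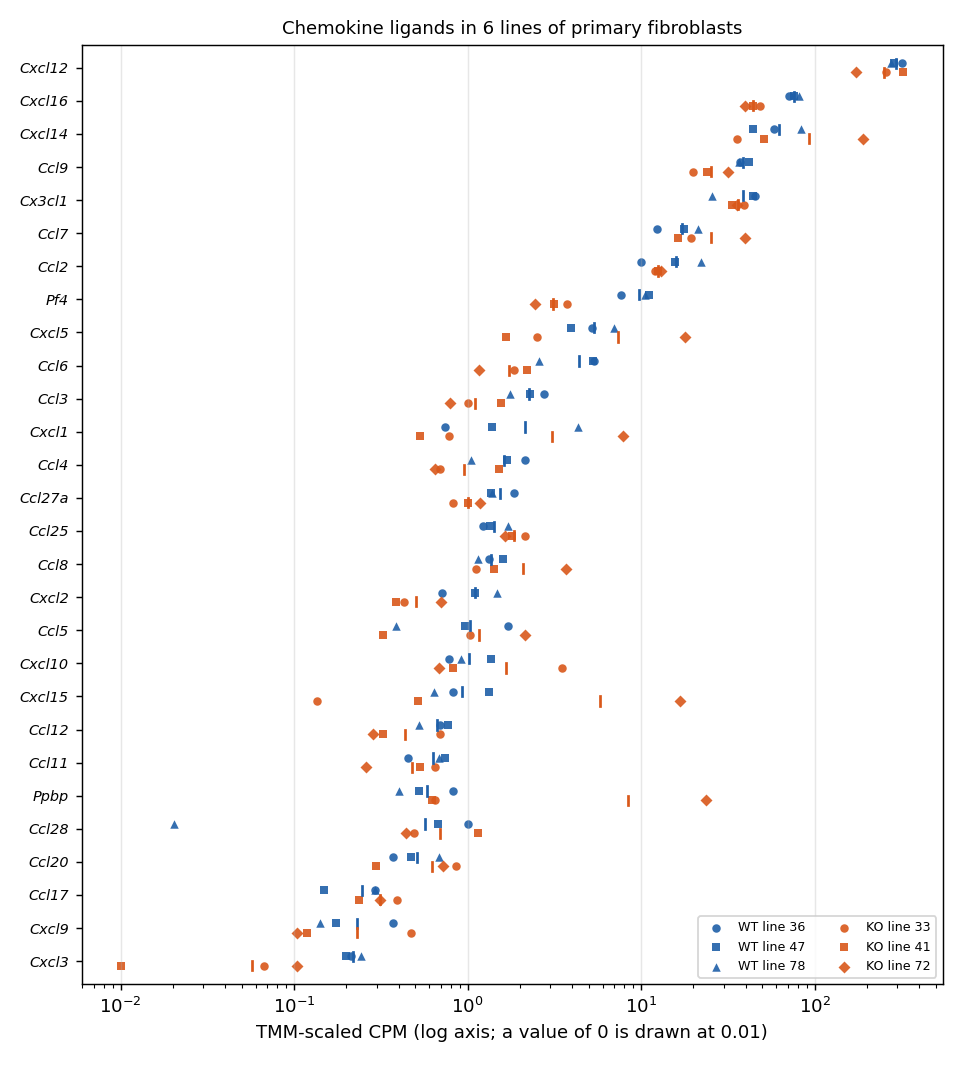
Level of each of the 28 tested ligands in the 6 lines, in TMM-scaled CPM on a log axis, with WT lines in blue, KO lines in orange and the mean of each genotype as a short vertical tick. Cxcl16 and Pf4 show the orange points apart to the left of the blue ones, while Cxcl5, Ppbp, Cxcl15 and Cxcl14 show KO line 72 (diamond) far to the right.

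Levels between genes were compared per kilobase of exon, in the HAT1 WT lines. The ligand output was carried by few genes, since 8 of the 32 ligands made up 88.5% of the summed ligand level. Cxcl12, which binds CXCR4 and the scavenger ACKR3, led with 36 ± 2.59 CPM per kb (SD, n = 3), and Cxcl14, a ligand of resting tissue, followed with 34 ± 11, so the spread of Cxcl14 covered the level of Cxcl12. Cxcl16 (25.3 ± 1.67) and the monocyte attractant Ccl7 (21.3 ± 5.51) came next and lay within the spread of Ccl7 of each other. Below them Ccl2 (14.0 ± 5.34), Pf4 (13.6 ± 2.54) and Ccl9 (12.7 ± 0.993) did not differ beyond their spread, and Cx3cl1 stood at 9.79 ± 2.79. The next ligand, Ccl3, was at 2.96 ± 0.66 CPM per kb, and 13 of the 32 ligands had a WT mean under 1 CPM.

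Among the homeostatic CXC ligands, Cxcl16 fell and Cxcl12 and Cxcl14 did not pass the test. Cxcl16 is made as a membrane-bound protein that binds CXCR6 and also takes up oxidised lipoprotein, and it is produced by macrophages. It lies at chr11:70453983-70459984 on the minus strand, where 18.3% of its exon length overlaps Zmynd15 on the other strand. Cxcl16 was at 71.3, 76.5 and 81.4 CPM in HAT1 WT and at 48.2, 43.9 and 39.8 CPM in HAT1 KO. The lowest WT line was well above the highest KO line, and the lines of each genotype lay close together. Averaged over 3 lines, Cxcl16 fell from 76.4 ± 5.04 to 44.0 ± 4.2 CPM (SD), to 57.6% of WT, and its log2 fold change was -0.80 (SE 0.09, adjusted p = 0.0357 in the edgeR test). Over the alternatives the adjusted p of Cxcl16 ran from 1.53e-08 to 0.529 and the log2 fold change from -0.87 to -0.72. With a line left out it passed only without KO line 72 (adjusted p = 0.0487), and it did not pass without WT line 36, 47 or 78 or KO line 33 or 41, where the adjusted p reached 0.23.

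Cxcl12, the most abundant ligand, was at 318, 288 and 277 CPM in HAT1 WT and at 258, 325 and 173 CPM in HAT1 KO. KO line 41 was the highest of all lines and KO line 72 the lowest, so the genotypes overlapped, and the log2 fold change was -0.22 (SE 0.22) with all lines and 0.00 without KO line 72. Cxcl14 was at 58.1, 44.2 and 83.9 CPM in HAT1 WT and at 35.5, 50.9 and 190 CPM in HAT1 KO. The direction of Cxcl14 rested on KO line 72, which held 2.27 times the level of the next line, and the log2 fold change was 0.57 (SE 0.64) with it and -0.51 (SE 0.29) without it. Neither estimate passed the test.

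The CXCR3 ligands held the other member past the threshold. Pf4, platelet factor 4, is a heparin-binding chemokine of platelet granules that is also transcribed in macrophages, and its gene lies at chr5:90772435-90773383 on the plus strand. Pf4 was at 7.69, 11.1 and 10.6 CPM in HAT1 WT and at 3.75, 3.15 and 2.46 CPM in HAT1 KO. The highest KO line reached less than the lowest WT line by a wide gap. Pf4 thus fell from 9.78 ± 1.83 to 3.12 ± 0.644 CPM (SD, n = 3 each), to 31.9% of WT, with a log2 fold change of -1.65 (SE 0.22, adjusted p = 0.0479 in the edgeR test). Over the alternatives the adjusted p of Pf4 ran from 3.61e-09 to 0.529, and with any 1 of the 6 lines left out it lay between 0.06 and 0.23 and passed in none, while the unadjusted p stayed at or under 0.00171. The interferon-induced ligands of the same receptor did not pass the test. Cxcl10 was at 0.782, 1.37 and 0.910 CPM in HAT1 WT and at 3.49, 0.828 and 0.687 CPM in HAT1 KO, where KO line 33 alone was high. Cxcl9 stayed between 0.104 and 0.472 CPM in all lines, also highest in KO line 33, and Cxcl11 had 16 counts over all libraries and was not tested.

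The neutrophil-attracting ligands, which share an ELR motif and act through CXCR2, included the members with the greatest excess in KO line 72. They sit with Pf4 in a tight cluster on chromosome 5, chr5:90759360-90905938 of GRCm38, where 7 members lie within 147 kb. Cxcl5 was at 5.18, 3.95 and 6.94 CPM in HAT1 WT and at 2.52, 1.66 and 18.0 CPM in HAT1 KO. KO lines 33 and 41 were the lowest of the 6 and KO line 72 the highest by far. The log2 fold change of Cxcl5 was accordingly 0.47 (SE 0.89) with all lines and -1.35 (SE 0.32) without KO line 72, with an adjusted p of 0.137 in the latter fit and of 0.137 to 0.989 over the alternatives.

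Ppbp, the precursor of a platelet-derived neutrophil attractant, was at 0.822, 0.522 and 0.404 CPM in HAT1 WT and at 0.651, 0.621 and 23.8 CPM in HAT1 KO. Only KO line 72 stood out, with 1837 counts against 40 to 62 in the other lines, 29.0 times the level of the next line. In the edgeR test Ppbp had a log2 fold change of 3.85 (SE 1.55), an unadjusted p of 0.0455 and an adjusted p of 0.332, and without KO line 72 the log2 fold change was 0.15 (SE 0.39, unadjusted p of 0.725). The unadjusted p was also over the threshold without WT line 36 (0.0922), WT line 47 (0.115) or WT line 78 (0.124). Cxcl15, a ligand best known from lung epithelium, was at 0.822, 1.32 and 0.637 CPM in HAT1 WT and at 0.135, 0.518 and 16.8 CPM in HAT1 KO. Here too KO line 72 was the highest line, at 12.7 times the next, and KO lines 33 and 41 were the lowest, so the log2 fold change was 2.65 (SE 1.60) with KO line 72 and -1.51 (SE 0.66) without it.

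Cxcl1, an early attractant released by stimulated fibroblasts, was at 0.742, 1.39 and 4.33 CPM in HAT1 WT and at 0.786, 0.533 and 7.89 CPM in HAT1 KO. KO line 72 and WT line 78 were the high lines, and the log2 fold change was 0.51 (SE 1.15) with all lines and -1.69 (SE 0.79) without KO line 72. Cxcl2, which is closely related to Cxcl1, was at 0.716, 1.11 and 1.48 CPM in HAT1 WT and at 0.427, 0.385 and 0.700 CPM in HAT1 KO. KO line 72 was the highest KO line for Cxcl2 as well but stayed just below the lowest WT line. The log2 fold change of Cxcl2 was -1.12 (SE 0.39), with an unadjusted p of 0.0267 and an adjusted p of 0.278 in the edgeR test, and the unadjusted p reached 0.0933 without WT line 78 and was also over the threshold without WT line 47 (0.0644), KO line 33 (0.0766) or KO line 41 (0.0799). Cxcl3 had 16, 16 and 24 counts in HAT1 WT and 6, 0 and 8 in HAT1 KO, with no overlap between the genotypes, and its log2 fold change of -1.87 (SE 0.81) did not pass the test (unadjusted p = 0.059, adjusted p = 0.363). Of the 6 ligands of this kind, 1 was lower (Cxcl2, 16.7%) and 1 higher (Ppbp, 16.7%) at an unadjusted p under 0.05, beside 8.77% and 5.88% of all genes. Of the 6, 0 passed the adjusted threshold, and the median log2 fold change was 0.487.

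**Figure D2:**
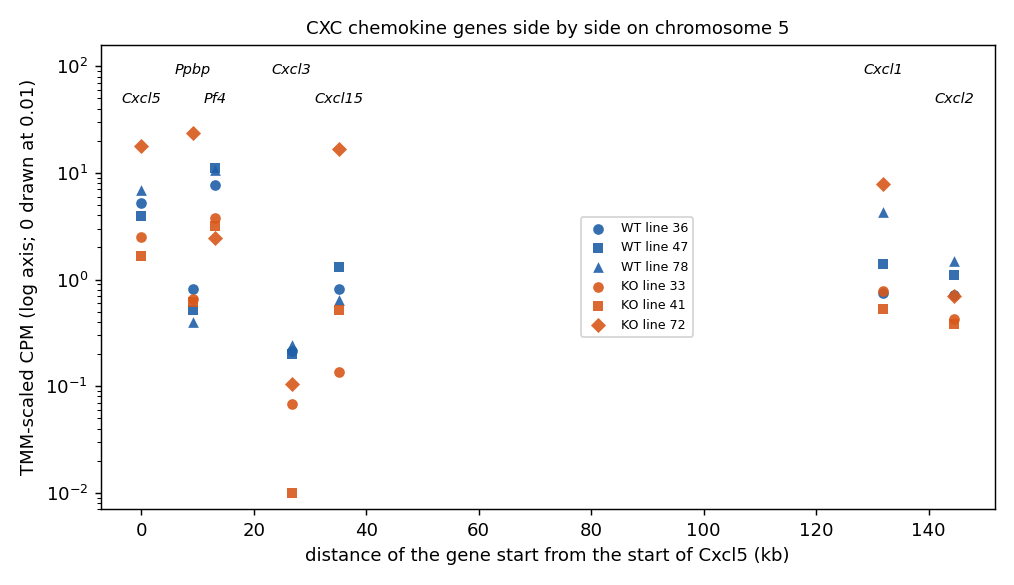
Level of the 7 CXC genes of the proximal cluster on chromosome 5 (TMM-scaled CPM, log axis) against the distance of each gene's start from that of Cxcl5 in kb, with 1 point for each of the 6 lines. KO line 72 (diamond) is the highest line for Cxcl5, Ppbp, Cxcl15 and Cxcl1 and the lowest for Pf4, which lies between Ppbp and Cxcl3.

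Along the cluster, KO line 72 was the highest line in Cxcl5 and Ppbp, the lowest in Pf4, where all KO lines were low, and again the highest in Cxcl15 and Cxcl1. The promoter sequences of this cluster, except that of Cxcl5, are printed because members a few kilobases apart behaved differently in 1 line. They are the 250 bases before the RefSeq start of each gene on GRCm38.p6, all on the plus strand of chromosome 5, and capitals mark matches to the NF-kB consensus or to the TATA box TATAAA, both searched on both strands. In genomic order they are Ppbp (chr5:90768268-90768517), Pf4 (chr5:90772185-90772434), Cxcl3 (chr5:90785851-90786100), Cxcl15 (chr5:90794284-90794533), Cxcl1 (chr5:90890995-90891244) and Cxcl2 (chr5:90903649-90903898).
Ppbp: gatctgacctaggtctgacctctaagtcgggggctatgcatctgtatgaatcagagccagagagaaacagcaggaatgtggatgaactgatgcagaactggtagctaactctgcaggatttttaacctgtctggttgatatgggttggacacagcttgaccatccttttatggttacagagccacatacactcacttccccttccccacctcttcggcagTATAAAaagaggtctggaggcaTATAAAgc
Pf4: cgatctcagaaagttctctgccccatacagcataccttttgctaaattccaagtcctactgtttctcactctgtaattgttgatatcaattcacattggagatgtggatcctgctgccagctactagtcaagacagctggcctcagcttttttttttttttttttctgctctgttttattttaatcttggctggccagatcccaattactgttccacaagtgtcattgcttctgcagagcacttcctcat
Cxcl3: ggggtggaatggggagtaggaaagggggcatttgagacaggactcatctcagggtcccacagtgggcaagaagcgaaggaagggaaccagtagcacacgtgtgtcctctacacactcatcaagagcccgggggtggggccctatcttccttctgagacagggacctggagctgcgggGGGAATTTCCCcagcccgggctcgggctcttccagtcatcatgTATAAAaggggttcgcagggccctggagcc
Cxcl15: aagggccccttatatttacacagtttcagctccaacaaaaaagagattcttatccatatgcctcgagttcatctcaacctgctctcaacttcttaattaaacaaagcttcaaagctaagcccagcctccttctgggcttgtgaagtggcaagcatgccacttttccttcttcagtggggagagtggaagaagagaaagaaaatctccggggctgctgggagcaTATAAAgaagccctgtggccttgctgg
Cxcl1: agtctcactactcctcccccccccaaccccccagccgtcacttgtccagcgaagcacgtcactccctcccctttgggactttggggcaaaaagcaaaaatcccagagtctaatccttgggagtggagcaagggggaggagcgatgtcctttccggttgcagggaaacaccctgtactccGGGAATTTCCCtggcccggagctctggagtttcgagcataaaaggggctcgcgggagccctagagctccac
Cxcl2: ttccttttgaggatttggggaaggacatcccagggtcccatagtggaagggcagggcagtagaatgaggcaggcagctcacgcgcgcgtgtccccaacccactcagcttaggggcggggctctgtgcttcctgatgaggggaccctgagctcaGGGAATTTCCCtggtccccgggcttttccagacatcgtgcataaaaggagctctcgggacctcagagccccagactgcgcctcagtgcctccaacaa
The NF-kB consensus was found 73 bases before the start of Cxcl3, 71 before that of Cxcl1 and 97 before that of Cxcl2, each time with an overlapping match on the other strand. TATAAA was found 30 bases before the start of Ppbp and again 8 bases before it, 30 bases before that of Cxcl3 and 27 bases before that of Cxcl15, while the Pf4 window held neither. Ppbp and Cxcl15, with the largest excess in KO line 72 among these 6 genes, had TATAAA and no NF-kB match. Cxcl1, also highest in KO line 72, had the NF-kB match and no TATAAA. Cxcl2 likewise had the NF-kB match alone and Cxcl3 had both, and in these genes KO line 72 lay below every WT line. A link between the matches and the levels was not tested. Cxcl5, a further member of the cluster that was highest in KO line 72, was not part of this comparison. Over the family, 36 of the 49 members had a promoter in the RefSeq table, and the NF-kB consensus was present in 8 of them (6 of 22 ligands and 2 of 14 receptors) against 3.9% of 32851 mouse promoters of the same length. TATAAA was present in 13 of the 36 (9 ligands and 4 receptors) against 12.4% of all promoters. The members were counted as genes, with a match in any promoter of the gene, whereas the background was counted as single promoters. These shares are therefore in unlike units and do not measure an excess. A match describes the sequence and was not tested for binding.

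The inflammatory CC ligands Ccl3, Ccl4, Ccl5, Ccl6 and Ccl9 were described together. Of the 5, 3 (60.0%, beside 8.77% of all genes) were lower at an unadjusted p under 0.05, 0 were higher, 0 passed the adjusted threshold, and the median log2 fold change was -0.771, beside 0.008 over all genes. The macrophage markers given below moved with them (median log2 fold change -0.85), and their part in these values was not tested. Ccl9 and Ccl6 are CCR1 ligands that mouse macrophages make without stimulation. Ccl9 was at 37.0, 42.1 and 36.7 CPM in HAT1 WT and at 19.9, 24.0 and 31.8 CPM in HAT1 KO. KO line 72 was the KO line nearest to the WT lines, with no overlap, and the log2 fold change was -0.62 (SE 0.18, unadjusted p = 0.0121, adjusted p = 0.212 in the edgeR test) with all lines and -0.81 (SE 0.12) without KO line 72. Ccl6 was at 5.32, 5.25 and 2.59 CPM in HAT1 WT and at 1.86, 2.19 and 1.17 CPM in HAT1 KO. WT line 78 lay much closer to the KO lines than to the other WT lines, and the log2 fold change was -1.33 (SE 0.37, unadjusted p = 0.0105, adjusted p = 0.203).

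Ccl3 and Ccl4, macrophage inflammatory proteins that attract monocytes and T cells, are neighbours on chromosome 11. Ccl3 was at 2.76, 2.30 and 1.75 CPM in HAT1 WT and at 0.999, 1.55 and 0.791 CPM in HAT1 KO. Every KO line was below every WT line by a small margin between WT line 78 and KO line 41, and the log2 fold change was -1.03 (SE 0.33, unadjusted p = 0.0190, adjusted p = 0.246 in the edgeR test), a call at the unadjusted threshold that was lost without WT line 36 (0.0689), WT line 47 (0.0524) or KO line 33 (0.0557). Ccl4 was at 2.15, 1.68 and 1.04 CPM in HAT1 WT and at 0.696, 1.51 and 0.648 CPM in HAT1 KO, where KO line 41 overlapped the WT lines, and did not pass the test (log2 fold change -0.77, SE 0.44). Ccl5, an attractant of T cells and monocytes, spread widely within each genotype, from 0.384 to 1.72 CPM in HAT1 WT (1.72, 0.969 and 0.384) and from 0.325 to 2.15 CPM in HAT1 KO (1.03, 0.325 and 2.15), with a log2 fold change of 0.20 (SE 0.78).

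The 4 CCR2 ligands, which draw monocytes, showed 0 members lower and 0 higher at an unadjusted p under 0.05, beside 8.77% and 5.88% of all genes. Their median log2 fold change was 0.108. Ccl2 was at 9.96, 15.7 and 22.1 CPM in HAT1 WT and at 12.0, 12.5 and 13.1 CPM in HAT1 KO. The KO lines were almost level while the WT lines spread to either side of them, and the log2 fold change was -0.34 (SE 0.27). Ccl7 was at 12.4, 17.6 and 21.2 CPM in HAT1 WT and at 19.4, 16.4 and 39.7 CPM in HAT1 KO, and Ccl8 was at 1.33, 1.61 and 1.15 CPM in HAT1 WT and at 1.12, 1.42 and 3.71 CPM in HAT1 KO. In both genes KO line 72 was the highest line, so the log2 fold change went from 0.56 to 0.08 for Ccl7 and from 0.61 to -0.09 for Ccl8 when it was left out. Ccl12 lay between 0.285 and 0.770 CPM in all lines.

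Cx3cl1, fractalkine, the membrane-anchored ligand of CX3CR1, was at 45.4, 44.2 and 25.8 CPM in HAT1 WT and at 39.1, 33.3 and 35.7 CPM in HAT1 KO. The KO lines lay inside the WT range, and the log2 fold change was -0.09 (SE 0.22). Of the ligands of CCR4, CCR6, CCR9 and CCR10, 5 were tested and 1 (20.0%, beside 8.77% of all genes) was lower at an unadjusted p under 0.05. That was Ccl27a, a skin chemokine that binds CCR10, at 1.84, 1.37 and 1.39 CPM in HAT1 WT and at 0.820, 1.01 and 1.18 CPM in HAT1 KO. The genotypes did not overlap, but the log2 fold change of -0.61 (SE 0.25) had an unadjusted p of 0.0490 and an adjusted p of 0.337 in the edgeR test, the unadjusted p was under the threshold in 1 of the 6 fits that left out a line, the one without KO line 72, and Ccl27a has near-identical copies in the genome between which reads could be split. Ccl25, the CCR9 ligand of thymus and gut, was at 1.22, 1.35 and 1.70 CPM in HAT1 WT and at 2.13, 1.80 and 1.65 CPM in HAT1 KO, with a log2 fold change of 0.39 (SE 0.23). Ccl17, Ccl20 and Ccl28 lay at or under 1.15 CPM in every line, and Ccl28 had 2 counts in WT line 78 against 34 to 78 in the other lines. The eotaxin Ccl11 lay between 0.259 and 0.745 CPM, with a log2 fold change of -0.38 (SE 0.42).

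Of the ligands that did not pass the filter on low counts, Ccl24, a further eotaxin, had 4, 2 and 10 counts in HAT1 WT and 0 in each HAT1 KO line. Ccl22 had 72 counts in all, Cxcl17 34 and Cxcl11 16, and the receptor Cxcr1 had 8. A count of 0 allows up to 3 counts, and no fold change was computed for these genes.

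**Figure D3:**
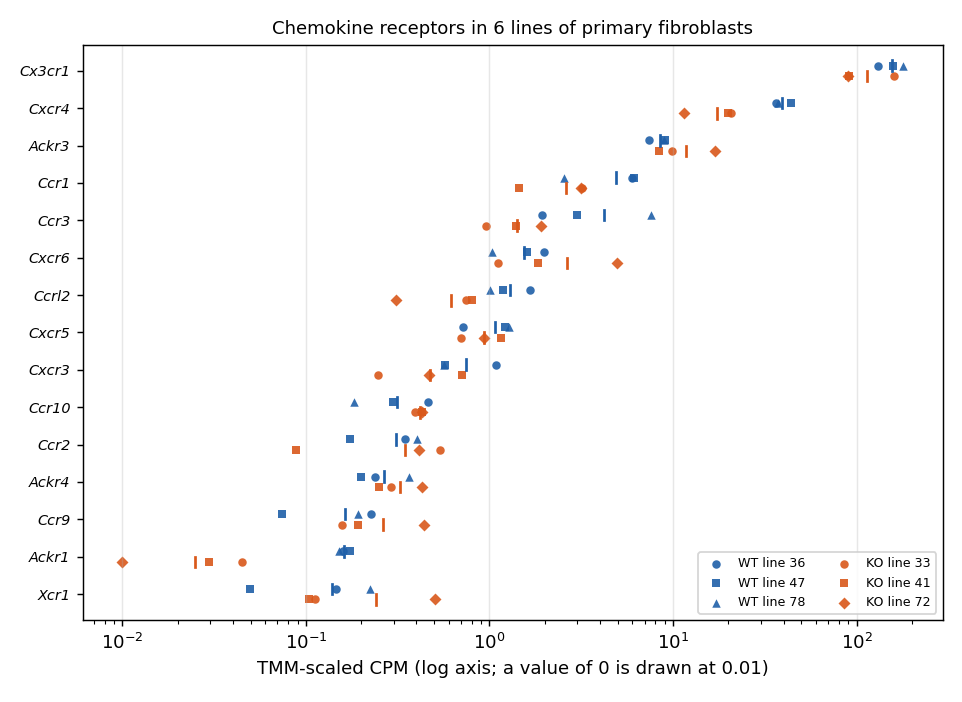
Level of 15 tested receptors in the 6 lines, in TMM-scaled CPM on a log axis, with WT lines in blue, KO lines in orange and genotype means as short vertical ticks. Cxcr4 shows the KO lines at 11.5 to 20.6 CPM below the WT lines at 36.6 to 44.1 CPM.

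The receptors were carried by fewer genes still. Cx3cr1 (34.7 ± 5.47 CPM per kb in HAT1 WT, SD, n = 3), Cxcr4 (21.8 ± 2.29) and Ackr3 (2.52 ± 0.263) made up 89.5% of the summed receptor level in the HAT1 WT lines. The spreads of these 3 did not overlap, whereas those of Ccr1 (1.73 ± 0.716) and Ccr3 (1.28 ± 0.923), at lower levels, did.

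Among the 12 tested signalling receptors, 2 (16.7%, beside 8.77% of all genes) were lower and 0 (beside 5.88%) higher at an unadjusted p under 0.05. Of the 12, 0 passed the adjusted threshold in the edgeR test. Cxcr4, the receptor through which CXCL12 holds blood progenitors and guides migrating cells (chr1:128588199-128592293, minus strand), was at 36.6, 44.1 and 37.4 CPM in HAT1 WT and at 20.6, 19.9 and 11.5 CPM in HAT1 KO. The genotypes were well apart, and KO line 72 was the lowest line. The means were 39.4 ± 4.13 and 17.3 ± 5.06 CPM (SD, n = 3 each), with HAT1 KO at 44.1% of WT, and the edgeR test gave a log2 fold change of -1.18 (SE 0.23), an unadjusted p of 0.00189 and an adjusted p of 0.106. Without KO line 72 the spread was smaller, and the log2 fold change of -0.95 (SE 0.11) had an adjusted p of 0.0487. Over the alternatives the adjusted p of Cxcr4 ran from 9.94e-05 to 0.666, and the unadjusted p stayed at or under 0.0155.

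Ccr3, the eotaxin receptor, was at 1.94, 2.98 and 7.61 CPM in HAT1 WT and at 0.954, 1.39 and 1.92 CPM in HAT1 KO. WT line 36 and KO line 72 nearly touched, and WT line 78 was far above all others. The log2 fold change of Ccr3 was -1.56 (SE 0.56, unadjusted p = 0.0304, adjusted p = 0.293 in the edgeR test), and the unadjusted p was over the threshold without WT line 78 (0.0923), KO line 33 (0.0871) or KO line 41 (0.0736). Cx3cr1, the fractalkine receptor of monocytes, macrophages and microglia, was at 131, 158 and 180 CPM in HAT1 WT and at 160, 90.6 and 90.3 CPM in HAT1 KO. KO line 33 lay inside the WT range while KO lines 41 and 72 lay below it, and the log2 fold change of -0.46 (SE 0.25) did not pass the test. With a line left out the log2 fold change of Cx3cr1 ran from -0.79 to -0.3. The unadjusted p was under 0.05 only without KO line 33 (0.00242, adjusted p = 0.156 in the edgeR test).

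Ccr1, which CCL3, CCL6 and CCL9 bind, was at 5.99, 6.12 and 2.55 CPM in HAT1 WT and at 3.21, 1.45 and 3.14 CPM in HAT1 KO, with a log2 fold change of -0.91 (SE 0.45) that did not pass. Cxcr6, the receptor of CXCL16, was at 1.98, 1.60 and 1.03 CPM in HAT1 WT and at 1.11, 1.83 and 4.98 CPM in HAT1 KO, high in KO line 72 alone, and the log2 fold change went from 0.78 (SE 0.58) to -0.05 (SE 0.38) when that line was left out.

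Of the remaining signalling receptors, Cxcr5, Cxcr3, Ccr10, Ccr2, Ccr9 and Xcr1 lay at or under 1.28 CPM in every line and none had an unadjusted p under 0.05. Ccr2 is the receptor of the monocyte attractants, and with 6 to 48 counts a line it was near the bottom of the range although its ligands Ccl2 and Ccl7 were among the abundant members.

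The atypical receptors take up chemokines without G protein signalling. Ackr3, which removes CXCL12, was at 7.44, 9.02 and 8.90 CPM in HAT1 WT and at 9.90, 8.4 and 17 CPM in HAT1 KO, with overlap between the genotypes and a log2 fold change of 0.48 (SE 0.27), or 0.13 (SE 0.15) without KO line 72. Ackr1, the Duffy antigen of red cells and venules, had 12, 14 and 15 counts in HAT1 WT and 4, 2 and 0 in HAT1 KO. The genotypes were apart at these low counts, with a log2 fold change of -2.60 (SE 0.77, unadjusted p = 0.0136, adjusted p = 0.219 in the edgeR test), and 25.7% of the exon length of Ackr1 overlaps Cadm3 on the same strand. Ackr4 lay between 0.199 and 0.428 CPM. Ccrl2, which binds chemerin and presents it to other cells, was at 1.67, 1.19 and 1.01 CPM in HAT1 WT and at 0.741, 0.799 and 0.311 CPM in HAT1 KO. Ccrl2 showed no overlap between the genotypes, with a log2 fold change of -1.06 (SE 0.42, unadjusted p = 0.0438, adjusted p = 0.328), and the unadjusted p was under the threshold without KO line 41 (0.0456) and over it without WT line 36 (0.141), WT line 47 (0.0834), WT line 78 (0.0547), KO line 33 (0.0572) or KO line 72 (0.0608).

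**Figure D4:**
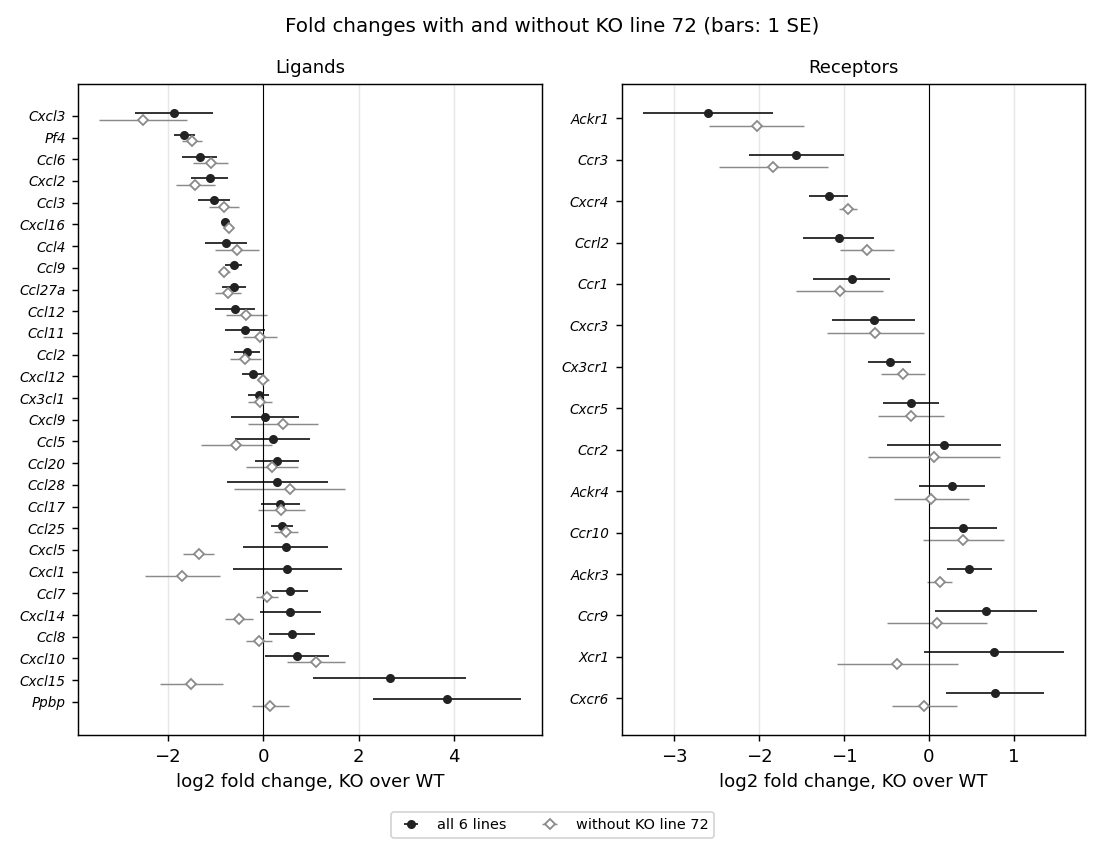
Log2 fold change of HAT1 KO over HAT1 WT with its SE for the 28 tested ligands and 15 tested receptors, from all 6 lines (filled circles) and without KO line 72 (open diamonds). The members at the top of each panel stay below 0 without KO line 72, whereas Cxcl5, Cxcl1, Cxcl14, Cxcl15 and Ppbp among the ligands and Xcr1 and Cxcr6 among the receptors move across or to 0.

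The line-to-line differences of KO line 72 were read against the whole table. It was the highest of the 6 lines in 13 of the 44 tested members (29.5%) and the lowest in 14 (31.8%), beside 26.0% and 25.4% of all genes tested. The members in which it was at least 2 times the next line were Cxcl5, Cxcl14, Cxcl15, Ppbp, Ccl8, Cxcr6 and Xcr1, named after their values had been seen. The share of all genes with such an excess was not computed, so this list does not describe the members in particular. Among members lower at an unadjusted p under 0.05, Cxcl16, Pf4, Cxcr4, Ccl9, Ccl6 and Ackr1 kept an unadjusted p under 0.05 in each of the 6 fits that left out a line. With the sequencing lane in the edgeR model, Ccl6 (0.0699) and Ackr1 (0.0654) lost it, as did Ccl3 (0.0925), Ccl27a (0.235), Ccrl2 (0.190) and Ppbp (0.290). Cxcl16, Pf4, Cxcr4, Ccl9, Cxcl2 (0.0398) and Ccr3 (0.0355) kept it with the lane. Ccr1 (0.0103, adjusted p = 0.634) and Ccl2 (0.0344, adjusted p = 0.761), over the unadjusted threshold without the lane, were lower and under it with the lane. Ackr1, with 0 to 15 counts a line, was not tested with counts halved or at a mean of at least 50 counts.

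The cell types in the cultures were then read from marker genes. The 10 fibroblast markers were present in every line and summed to 60900 to 68800 CPM in HAT1 WT and 46400 to 78400 CPM in HAT1 KO. Of these 10, 1 was lower (10.0%, near the 8.77% of all genes), Thy1 (log2 fold change -0.31, unadjusted p = 0.035 in the edgeR test), and 0 were higher, beside 5.88%. All 17 macrophage markers were also present in every line. They summed to 6330, 6680 and 5910 CPM in HAT1 WT and to 3470, 3680 and 2890 CPM in HAT1 KO, so no KO line reached the WT range. Of the 17, 16 (94.1%) were lower at an unadjusted p under 0.05 and 8 (47.1%) at an adjusted p under 0.05, beside 8.77% and 0.528% of all genes, with a median log2 fold change of -0.85 and with Cd14 (-0.12) as the exception. The 8 were Tyrobp, Itgam, Csf1r, Lyz2, Spi1, Ptprc, Fcer1g and Adgre1, and without WT line 36, 47 or 78 or KO line 33 or 41 none of them passed the adjusted threshold. In bulk RNA, fewer cells of a type and less RNA in each such cell cannot be told apart.

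Other blood and vessel markers were low. The 3 of 8 neutrophil and mast cell markers in the table summed to 0.298 to 0.943 CPM over the lines, the 4 of 6 lymphoid markers to 0.053 to 0.224 CPM and the 5 epithelial markers to 1.07 to 2.43 CPM. The platelet genes Itga2b and Gp1bb, the 2 of 6 erythroid and platelet markers in the table, summed to 12.9, 9.40 and 9.58 CPM in HAT1 WT and to 10.7, 9.73 and 11.1 CPM in HAT1 KO, with overlap, and their log2 fold changes of -0.25 and 0.05 did not pass the test. The 6 of 8 endothelial markers summed to 14.5 to 19.8 CPM in HAT1 WT and 12.4 to 18.4 CPM in HAT1 KO, with Pecam1 (log2 fold change -1.63, unadjusted p = 0.00690) and Cdh5 (-0.85, unadjusted p = 0.0221) lower in the edgeR test, and the 4 lymphatic endothelial markers summed to 70.8 to 123 CPM, with Pdpn, which fibroblasts also express, making up most of it.

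The macrophage markers moved with Cxcl16, Pf4 and Cxcr4, and their part in those results was not tested. As a description set up after the values had been seen, each member was also expressed as a percentage of the summed macrophage markers of the same line. A single marker, Lyz2, carried a large part of that sum, with means of 2940 CPM in HAT1 WT and 1460 CPM in HAT1 KO (log2 fold change -1.01). The percentages therefore lean on Lyz2 and do not weigh the 17 markers equally. Cxcl16 was then 1.13%, 1.15% and 1.38% in HAT1 WT and 1.39%, 1.19% and 1.38% in HAT1 KO, with overlap. Cxcr4 was 0.578%, 0.661% and 0.632% in HAT1 WT and 0.595%, 0.540% and 0.398% in HAT1 KO, where KO line 33 overlapped the WT lines and KO lines 41 and 72 lay below them. Pf4 was 0.121%, 0.166% and 0.179% in HAT1 WT and 0.108%, 0.0857% and 0.0851% in HAT1 KO, so the genotypes were still apart, with a ratio of the means of 0.598. Ccl9, Ccl6, Ccl3, Cxcl2, Ccr3, Ccrl2 and Ccl27a overlapped between the genotypes on this scale, whereas Ackr1 did not. The fibroblast ligand Cxcl12 was 5.02%, 4.31% and 4.69% in HAT1 WT and 7.44%, 8.84% and 5.99% in HAT1 KO, higher in every KO line although it overlapped in CPM. As the summed markers were lower in every KO line, 13 of the 44 members lay higher in every KO line on this scale, and 2 lay lower. Among the 13 were Ccl7, Ccl25 and Ackr3. The share of all genes on this scale was not computed, so these counts do not describe the members in particular.

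**Figure D5:**
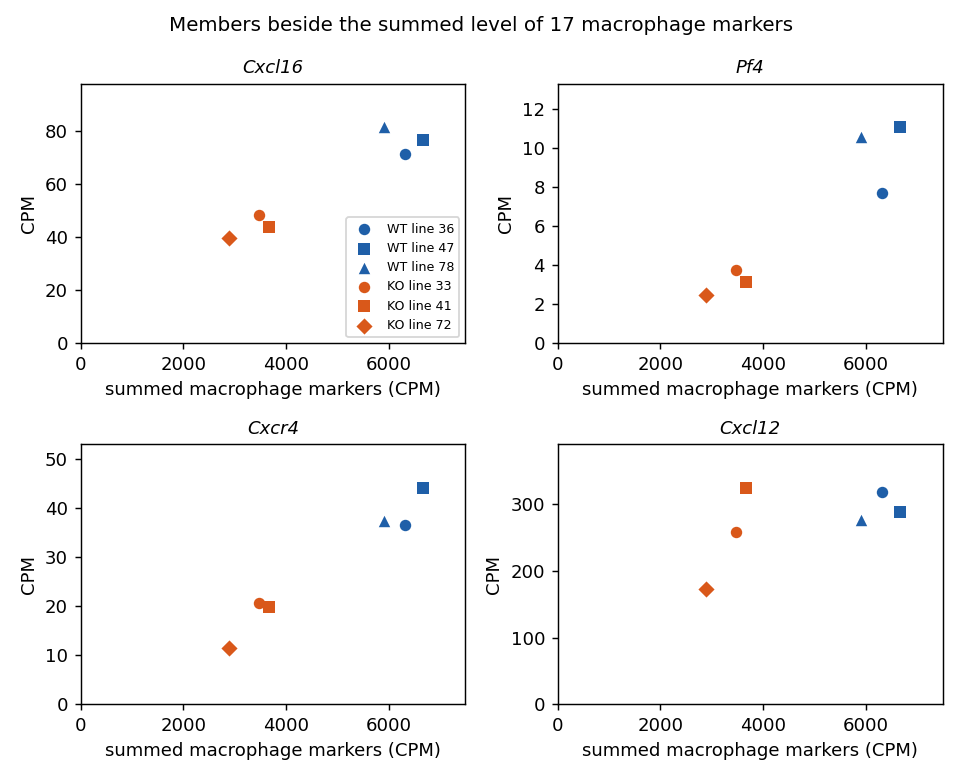
Level of Cxcl16, Pf4, Cxcr4 and Cxcl12 in CPM against the summed CPM of the 17 macrophage markers, 1 point for each of the 6 lines and both axes from 0. For Cxcl16, Pf4 and Cxcr4 the KO lines sit at the lower left and the WT lines at the upper right, while for Cxcl12 KO line 41 is the highest line and KO lines 33 and 72 lie below the WT lines.

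Downstream of the receptors, of 35 tested G proteins, effectors and desensitising factors, 19 (54.3%) were lower at an unadjusted p under 0.05, beside 8.77% of all genes. At the same threshold 0 were higher, beside 5.88% of all genes, and the median log2 fold change was -0.418. The 3 that passed the adjusted threshold were the Rac activators Dock2 (-0.74), Vav1 (-0.93) and Prex1 (-0.87), each with an adjusted p of 0.0320 in the edgeR test, and Dock2 and Vav1 are found mainly in blood cells. Vav1 was at 53.7, 54.0 and 54.8 CPM in HAT1 WT and at 30.2, 29.4 and 25.4 CPM in HAT1 KO, so the lines of each genotype were nearly level and far apart from the other genotype. Gnai2, the main inhibitory G protein of most cells, overlapped between the genotypes, with a log2 fold change of 0.04.

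Of 13 tested NF-kB genes, 5 (38.5%, beside 8.77% of all genes) were lower and 0 (beside 5.88%) higher at an unadjusted p under 0.05. None passed at an adjusted p under 0.05, and the median was -0.187. Rel (log2 fold change -0.32, adjusted p = 0.153) and the feedback inhibitor Tnfaip3 (-0.44, adjusted p = 0.173) had the smallest p in the edgeR test. The interferon genes held 1 of 10 lower (10.0%, near the 8.77% of all genes), Irf8 (-0.90, adjusted p = 0.0801), a factor of the myeloid lineage. Stat2 (-0.15, adjusted p = 0.667) had the next smallest p in the edgeR test. Of 9 genes for cleavage and binding outside the cell, 1 (11.1%, near the 8.77% of all genes) was lower. That was Adam17 (-0.47, adjusted p = 0.187), which sheds membrane-bound CX3CL1, and the next was Mmp2 (-0.28, adjusted p = 0.444). Of 5 genes on the chemerin and MIF side, 1 (20.0%, beside 5.88% of all genes) was higher. That was Mif (0.29, adjusted p = 0.330), which also binds CXCR4, and Cd74, the MIF receptor, was next (1.08, adjusted p = 0.484). Over these lists together 26 of 72 genes (36.1%) were lower and 1 (1.39%) higher at an unadjusted p under 0.05, beside 8.77% and 5.88% of all genes, and 24 of the 72 had every KO line below every WT line (33.3% against 12.4%). The macrophage markers (median log2 fold change -0.85) were lower too, as were the G protein (-0.418) and NF-kB (-0.187) lists. The medians of the interferon, cleavage, and chemerin and MIF lists were -0.06, -0.058 and -0.163, beside 0.008 over all genes. The part of the macrophage markers in these values was not tested. Without WT line 36, 47 or 78 or KO line 33 or 41, 0 of the 72 passed the adjusted threshold, and 4 did without KO line 72.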

How the data were processed

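RNA-seq of 6 pMEF lines was analysed from a table of raw read counts per gene deposited by the authors. The submitters' processing notes name mm10 and edgeR, and the aligner, the counter and the use of strand are not given in the sources used here. The deposited table also holds the authors' own comparison of the genotypes, a log2 fold change and log2 CPM, an F score, and a p-value and q-value for each gene. None of these was used. Even numbers made up 75.1% of the counts from 1 to 10 and 55.0% of those over 100 and up to 1000, so each read of a pair may have been counted.

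The 24 symbols turned into dates were restored from their identifiers. All 49 members matched GENCODE (GRCm38), which gave the positions and exon lengths. Promoters came from RefSeq (GRCm38.p6).

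Genotypes were compared on these counts in edgeR 4.0.16 (R 4.3.3): filterByExpr kept 14773 genes, TMM (trimmed mean of M-values) set the library scales, and the quasi-likelihood test was run on genotype alone, two-sided, with Benjamini-Hochberg adjustment over all genes tested and a threshold of 0.05. The SE of a log2 fold change is approximate, from the fold change and the square root of F. Simulated data were used to test the script. An exact permutation test of 3 lines against 3 cannot go below 0.1 and was not used. The common dispersion was 0.0747, and at 67720628 to 98786746 counts per library counting error matters for members with few counts.

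Alternatives were DESeq2 size factors, library size alone, no filter, a mean of at least 50 counts, lane as a covariate, counts halved, the DESeq2 1.42.0 Wald test, limma 3.58.1 voom with quality weights, and each line left out. Values in every line are given for tested members with a mean of at least 1 CPM or an unadjusted p under 0.05, and other genes by adjusted p or by the 2 smallest p of a list. The members, lists and rules were chosen with earlier results of these data known, so the lists are no independent evidence. Amino acid sequences were not used here. Values for 1 receptor are not reported here, although counts and medians include it.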

Additional observations from a re-analysis of the deposited data

How the results depend on the processing

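The count of all genes at an adjusted p under 0.05 was 78, and it was 46 with no filter, 2 with the lane in the model, 800 with the DESeq2 Wald test, 267 with voom, and 0 to 73 with a line left out. For the ligands it was 2, and it was 1 with DESeq2 size factors, 0 with no filter or the lane, 4 with DESeq2, and 0 to 1 with a line left out; for the receptors it was 0, and 1 with DESeq2, 1 with voom and 0 to 1 with a line left out. Ligands lower at an unadjusted p under 0.05 numbered 7, and 4 to 9 with a line left out, and receptors 4 and 3 to 3. The median log2 fold change of the ligands (-0.025) was -0.266 with no filter, -0.091 at a mean of 50 counts, -0.163 with the lane, 0.062 with counts halved, -0.262 with DESeq2, -0.372 with voom and -0.44 to 0.044 with a line left out. That of the receptors (-0.014) was -0.197, -0.455, -0.327, -0.216, -0.208, -0.153 and -0.305 to 0.041 under the same settings. The other signalling genes went from 3 to 0 with the lane, 19 with DESeq2, 11 with voom and 0 to 4 with a line left out, and the macrophage markers from 8 to 5 with no filter, 0 with the lane, 16 with DESeq2 and 0 to 5. The cause of these shifts was not tested. Of the values for single members under an alternative, 504 kept their call or moved by less than the spread, 56 moved, 35 lost an unadjusted p under 0.05 and 0 called values changed sign. Members without a call were judged by the move alone, so calls gained were not counted apart. Among the 504 were Cx3cr1 without KO line 33 and Ccr1 with the lane (unadjusted p of 0.00242 and 0.0103 in the edgeR test). Scaling moved the median of all genes to at most 0.0168. Lane 8 held WT line 36 alone, so that line and its lane cannot be told apart. No paired analysis was possible because the groups share no line numbers. Members under about 50 counts are limited by depth.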
